A study of Mus musculus with 7 samples.

Results

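Imprinted genes are genes of which the copy from 1 parent is silenced. A set of 42 of them was followed through RNA-seq and ChIP-seq libraries of mouse embryonic stem cells (ESCs), of 31498 genes counted in all. The genes were taken by name as well-known imprinted genes, together with the cluster they lie in and the parental allele known to be expressed. The rule that takes them uses no measured value, but the set and all lists below were chosen with earlier results of these data known. Their shares, set beside those of all genes, are therefore descriptive only. The imprinted genes come from 18 clusters on 10 chromosomes, with 18 genes expressed from the maternal allele, 21 from the paternal allele and 3 whose allele depends on the promoter (Gnas, Grb10 and Inpp5f). GENCODE M1, the gene annotation used, holds 41 of them. Kcnq1ot1 is missing there and was measured in a window after its RefSeq start.

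All RNA-seq libraries were from F123, an ESC line of first-generation hybrids between the mouse strains CAST and 129, so that every cell carries 1 CAST and 1 129 copy of each autosome. The study asked what a super-enhancer (SE, a long cluster of enhancer marks) downstream of Sox2 contributes to transcription. Wild type cells keep both copies of the SE (CAST+/129+). Deletion by CRISPR removed the 129 copy in CAST+/129-, the CAST copy in CAST-/129+, and in CAST-/129- both. Each genotype is 1 library of 1 clone, so that genotype and clone cannot be told apart and no difference below was tested against the spread between clones. Clones recovered from transfection on mouse embryonic fibroblast feeders, and feeders were left out, on gelatin, for the passages before harvest. ChIP-seq for H3K4me3, a mark of active promoters, was from unedited F123 cells, and ChIP-seq for H3K27ac, a mark of active promoters and enhancers, was from unedited F123 cells and from J1, a further ESC line, with 1 library for each.

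Imprinted genes lie in clusters, and each cluster is governed by an imprinting control region, a stretch of DNA that is methylated on the copy from 1 parent only. The methylation is laid down in the germline, and it is kept through early development by proteins such as Zfp57, which binds a short motif on the methylated copy and recruits Trim28. Many of these genes act on fetal growth and on the placenta, and their imprints are known to be variable in cultured ESCs. The deposited files hold no read sequences, so that RNA from the maternal and the paternal copy was measured together and no value below says which allele was expressed.

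Levels are given as FPKM, that is, distinct alignments per kilobase of exon and scaled to the alignments on genes. Wild type had 24848422 distinct alignments on genes, and CAST+/129-, CAST-/129+ and CAST-/129- had 12458881, 6058939 and 5831199, the order used for all values of 4 libraries below. Intervals in parentheses are exact 95% intervals, Poisson for a level and binomial for a ratio, and they cover counting error only. Before log2 ratios to wild type were taken 4 was added to each FPKM, and a gene was called at 3-fold (1.58 on the log2 scale). The added value shrinks the ratio of a gene with low levels. Sox2, the target of the deleted SE, was at 174.7, 82.0, 73.1 and 7.40 FPKM. The 12 ESC markers examined all had counts in every library, with summed levels of 1977, 1650, 1535 and 1132 FPKM. In bulk RNA, fewer cells of a type and less RNA per cell cannot be told apart.

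Of the 41 annotated imprinted genes, 7 were at least 3-fold above wild type in at least 1 mutant library, namely H19, Igf2, Cdkn1c, Phlda2, Peg10, Peg3 and Nnat, and 1, Grb10, was at least 3-fold below. In CAST+/129- 3 were higher, against 0.321% of all 31498 genes, and 1 was lower, against 0.305%. In CAST-/129+ 6 were higher, against 0.473%, and 0 were lower, against 0.330%. In CAST-/129- 7 were higher, against 0.819%, and 0 were lower, against 0.511%. Among the 9528 genes with a mean of at least 5 FPKM, a group closer in level to the 30 imprinted genes that reached 5 FPKM in a library, 1.06%, 1.50% and 2.50% were higher and 0.798%, 0.903% and 1.47% were lower. Both filters use the mutant libraries too, so that genes high only in these can pass. H19, Peg10 and Peg3 passed the threshold in all mutant libraries, and 33 genes passed it in none. The mutant libraries share 1 wild type library, so that their ratios are not independent of each other.

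The genes nearest to the threshold show where it fell. In CAST+/129- Peg3 lay just inside at 1.73 and Nnat just outside at 1.37, and on the lower side Grb10 lay inside at -1.89 and Zdbf2 outside at -0.996. In CAST-/129+ the pair was Cdkn1c at 1.85 and Mest at 1.51, and in CAST-/129- it was Phlda2 at 1.88 and Ndn at 1.26. Over all 41 genes the median log2 ratio was 0.13, 0.25 and 0.24 in CAST+/129-, CAST-/129+ and CAST-/129-, against 0.00 over all genes in each. Of the 20 annotated genes expressed from the paternal allele 2, 4 and 4 were higher, with medians of 0.19, 0.46 and 0.40. Among the 18 expressed from the maternal allele the counts were 1, 2 and 3, with medians of 0.16, 0.15 and 0.16. Of all genes 0.321%, 0.473% and 0.819% were higher, as given above. Beyond counting error alone, without a fold threshold, 17 genes were above wild type in all mutant libraries, against 9.45% of all genes and 21.5% of those with a mean of at least 5 FPKM. Below wild type in all of them were 5 (Slc22a18, Grb10, Copg2, Ppp1r9a and Zdbf2), against 12.5% and 25.3%. Nap1l4, 1 of the 17, was below wild type in both monoallelic libraries when all reads were counted.

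**Figure D1:**
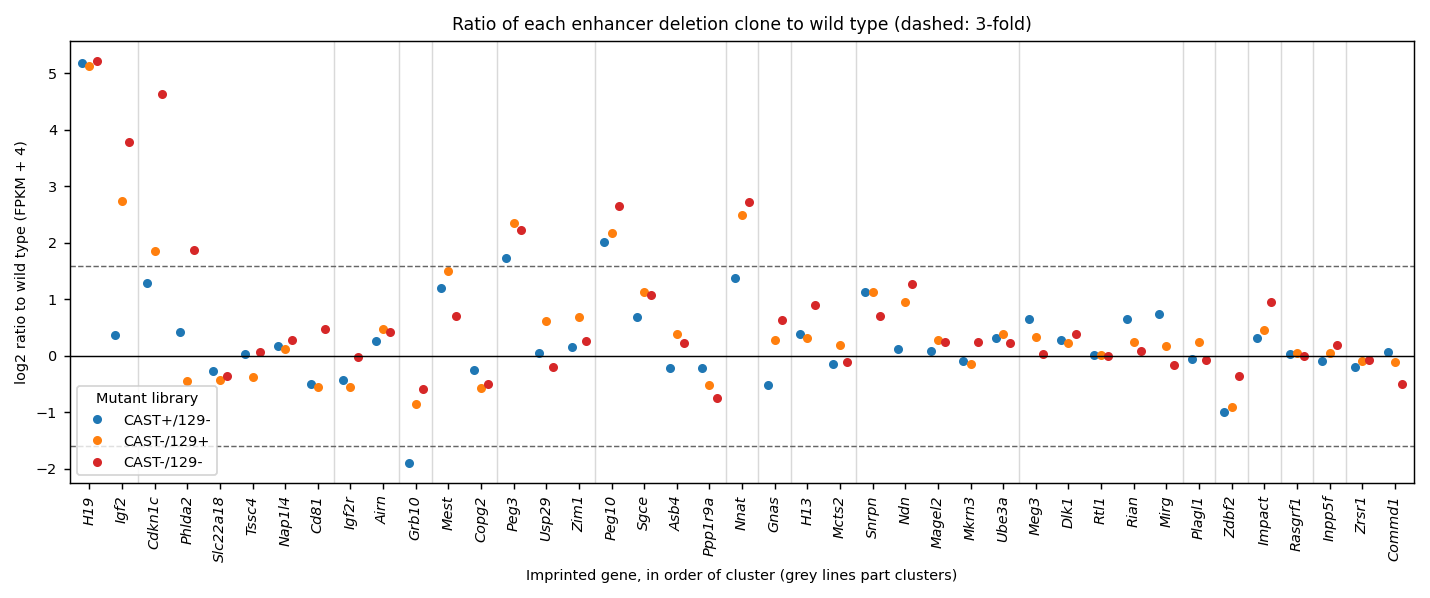
Each point is the log2 ratio of a mutant library to wild type after adding 4 to the FPKM, for the 41 annotated imprinted genes in order of cluster, with dashed lines at 3-fold. H19, Peg10 and Peg3 lie above the upper line in all mutant libraries, Igf2, Cdkn1c and Nnat in 2 of them and Phlda2 in CAST-/129- only, and Grb10 in CAST+/129- is the single point below the lower line.

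The H19-Igf2 cluster on chromosome 7 holds the maternally expressed long noncoding RNA H19 and the paternally expressed Igf2, a fetal growth factor, which compete for shared enhancers. H19 (ENSMUSG00000000031.9, chromosome 7, 149761434 to 149764048 of mm9) was at 11.9 FPKM (11 to 12.8) in wild type, against 571 (562 to 579), 554 (542 to 567) and 589 (576 to 602) in the mutant libraries. All mutant libraries were thus 46.5 to 49.4-fold above wild type, with log2 ratios of 5.17, 5.13 and 5.22. Collapsing of identical reads limits such an abundant short gene. With all reads counted H19 was at 6.87, 669, 605 and 662 FPKM, and with each start position counted once the log2 ratios were 2.58, 3.24 and 3.29.

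Igf2 (ENSMUSG00000048583.9, chromosome 7, 149836673 to 149852721) was at 1.44 FPKM (1.24 to 1.65) in wild type, against 3.0 (2.60 to 3.43), 32.4 (30.5 to 34.4) and 71.0 (68.1 to 74.0) in the mutant libraries. In contrast to H19, Igf2 differed widely between the mutant libraries. CAST+/129- stayed within 3-fold of wild type with a log2 ratio of 0.36, while CAST-/129+ was 22.5-fold (19.3 to 26.4) and CAST-/129- 49.4-fold (42.7 to 57.5) above it. With all reads counted these folds were 33.4 and 80.4, beyond the counting intervals. The libraries with the SE deleted on 1 allele thus had nearly the same H19 level but 3.0 and 32.4 FPKM of Igf2.

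In the Kcnq1ot1 cluster, further along chromosome 7, the paternally expressed noncoding RNA Kcnq1ot1 silences several maternally expressed genes in cis. Cdkn1c, the cyclin-dependent kinase inhibitor p57Kip2 (ENSMUSG00000037664.6, 150644255 to 150646955), was at 2.92 FPKM (2.45 to 3.44), 12.8 (11.5 to 14.4), 20.9 (18.4 to 23.7) and 168 (161 to 176). It rose past 3-fold in CAST-/129+ and in CAST-/129-, where it was 57.7-fold (48.6 to 69.0) above wild type, or 103-fold with all reads counted. In CAST+/129- it was 4.4-fold above wild type before 4 was added, and with 1 added in place of 4 it passed the threshold there, at 1.82. With 10 added it did not pass in CAST-/129+, at 1.26. Phlda2, a protein that limits growth of the placenta (150687450 to 150688446), was at 15.1 FPKM, 21.6, 10.03 and 66.4. It was above wild type in CAST+/129- (143%, 119 to 172), below in CAST-/129+ (66.4%, 47.5 to 91.0) and 4.4-fold (3.72 to 5.19) above in CAST-/129-. With each start position counted once the log2 ratio in CAST-/129- was 1.503, short of the threshold.

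The other annotated genes of the cluster did not pass the threshold. Cd81, a tetraspanin of the cell membrane, was at 76.0, 52.5, 50.6 and 108 FPKM, so that it was lowest in both monoallelic libraries and highest in CAST-/129-. With each start position counted once the monoallelic libraries had log2 ratios of 0.02 and 0.04 in place of -0.50 and -0.55. Nap1l4, a nucleosome assembly protein, was at 63.5, 72.0, 69.7 and 77.6 FPKM, and at 79.1, 71.2, 71.3 and 79.8 FPKM with all reads counted. Tssc4 was at 11.5, 11.9, 7.97 and 12.3 FPKM. The transporter gene Slc22a18 was low, with 69, 14, 2 and 4 counts. As percentages of the wild type level the mutant libraries stood at 40.5 (21.0 to 72.6), 11.9 (1.41 to 44.6) and 24.7 (6.55 to 66.2). With all reads counted CAST-/129- was at 0.476 FPKM against 0.970 in wild type. These counts are too few to place the gene on either side of 3-fold. Kcnq1ot1 itself was measured in the 10 kb after its start (chromosome 7, 150472453 to 150482452, minus strand), where no annotated gene shares its strand. This window held 1745, 987, 410 and 222 counts, which is 7.02, 7.92, 6.77 and 3.81 FPKM. The mutant libraries thus held 113% (104 to 122), 96.4% (86.3 to 107) and 54.2% (46.9 to 62.4) of the wild type level. The lowest was CAST-/129-, the library with the highest Cdkn1c and Phlda2. Cdkn1c was also 4.4-fold above wild type in CAST+/129- and 7.18-fold in CAST-/129+, where the window was at 113% and 96.4%. Phlda2 was above wild type in CAST+/129- and below it in CAST-/129+. Whether the level of Kcnq1ot1 bears on these genes was not tested.

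**Figure D2:**
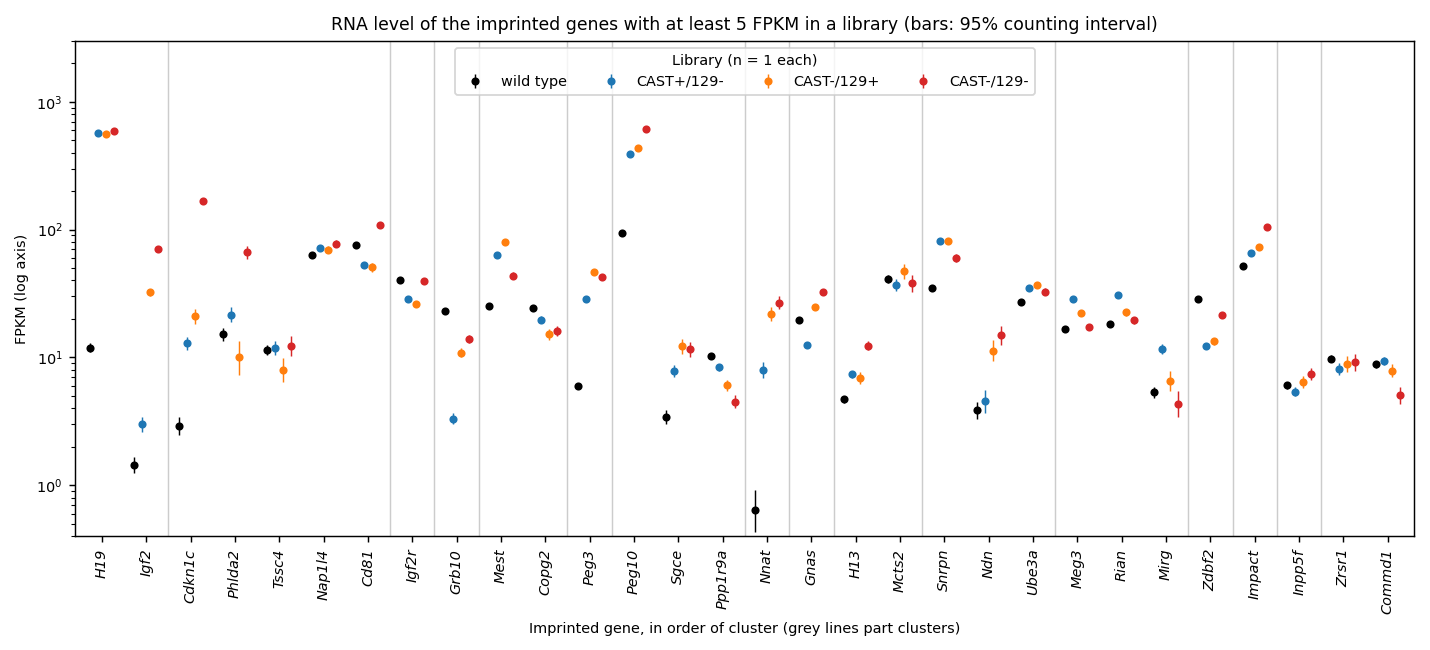
FPKM on a log axis for the 30 imprinted genes that reached 5 FPKM in at least 1 of the 4 RNA-seq libraries, in order of cluster, with exact 95% counting intervals and 1 library per genotype. H19 stands at 11.9 FPKM in wild type and between 554 and 589 in the mutant libraries, Cdkn1c spans 2.92 to 168, and genes such as Mcts2, between 36.7 and 47.2, stay close together.

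Genes expressed from the paternal allele made up the next group past the threshold. Peg10, a retrotransposon-derived gene required for the placenta (ENSMUSG00000092035.1, chromosome 6, 4697306 to 4710514), was at 94.2 FPKM (92.7 to 95.7) in wild type and at 391 (386 to 395), 438 (432 to 445) and 611 (603 to 619) in the mutant libraries. These are 4.15, 4.65 and 6.49-fold above wild type. Peg10 is long and abundant, and with each start position counted once its log2 ratios were 0.98, 1.64 and 1.76 in place of 2.01, 2.17 and 2.65, so that CAST+/129- lay within 3-fold. Sgce, epsilon-sarcoglycan, starts beside Peg10 on the opposite strand. It was at 3.40, 7.85, 12.2 and 11.6 FPKM, with log2 ratios of 0.68, 1.13 and 1.07 that stayed short of the threshold. The maternally expressed Ppp1r9a of the same cluster, which encodes the actin-binding protein neurabin, was at 10.3, 8.35, 6.06 and 4.51 FPKM.

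Peg3, a zinc-finger protein gene (ENSMUSG00000002265.8, chromosome 7, 6656603 to 6683132), was at 5.93 FPKM (5.67 to 6.20), 28.9 (28.0 to 29.7), 46.8 (45.4 to 48.4) and 42.4 (41.0 to 43.9). It was 4.87, 7.90 and 7.15-fold above wild type, and CAST-/129- was not the highest library. In CAST+/129- Peg3 was the gene closest to the threshold, and it was at 1.49 with each start position counted once and at 1.29 with 10 added in place of 4. Zim1 and Usp29, its neighbours in the cluster, stayed under 5 FPKM. Nnat, neuronatin, a small membrane protein (ENSMUSG00000067786.9, chromosome 2, 157385814 to 157388258), was almost silent in wild type with 29 counts and 0.638 FPKM (0.427 to 0.916). It was at 7.99 (6.87 to 9.24), 22.0 (19.3 to 25) and 26.7 (23.7 to 30.0), so that no mutant library overlapped wild type. Without an added value it was 12.5-fold (8.43 to 19.2), 34.5-fold (23.4 to 52.6) and 41.9-fold (28.5 to 63.7) above wild type, with all reads counted 19.3, 61.9 and 79.1-fold, and after adding 4 it passed the threshold in CAST-/129+ and CAST-/129-.

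Further paternally expressed genes lay above wild type without passing 3-fold after 4 was added. Mest, a hydrolase-like protein gene of the mesoderm, was at 25.2 FPKM, 63.3, 79.2 and 43.5, and Snrpn, a component of small nuclear ribonucleoproteins, was at 35.2, 81.4, 81.3 and 59.6. Both were highest in the monoallelic libraries and intermediate in CAST-/129-. Mest in CAST-/129+ had a log2 ratio of 1.51 and passed 3-fold, at 1.66, when all reads were counted. Ndn, necdin, had another order, at 3.85, 4.57, 11.3 and 14.8 FPKM. Its log2 ratio of 1.26 in CAST-/129- was the largest there that did not pass, although the level was 386% (305 to 487) of wild type. Impact, a regulator of the kinase Gcn2, was at 51.9, 65.8, 72.4 and 104 FPKM, and CAST-/129- was at 201% (191 to 212) of wild type.

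Other paternally expressed genes moved little or lay lower. Zdbf2, a zinc-finger protein gene, was at 28.6 FPKM, 12.3, 13.4 and 21.5, with both monoallelic libraries below CAST-/129-. The retrogenes Mcts2 and Zrsr1 lie in introns of H13 and Commd1. Mcts2 was at 41.1, 36.7, 47.2 and 37.8 FPKM, and Zrsr1 at 9.79, 8.09, 8.90 and 9.14. Reads of a retrogene can be shared with its parent gene on the X chromosome (Mcts1 and Zrsr2), so that these levels are uncertain. H13, a signal peptide peptidase, was at 4.71, 7.37, 6.89 and 12.3 FPKM, and Commd1 at 8.80, 9.35, 7.89 and 5.05, so that the host genes differed in direction in CAST-/129- (262% and 57.5% of wild type) while their retrogenes stayed at 92.1% (77.7 to 109) and 93.3% (78.8 to 110). With all reads counted both retrogenes lay above wild type there, Mcts2 at 29.7 FPKM against 27.2 and Zrsr1 at 6.76 against 6.08.

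Grb10, an adaptor that restrains insulin and IGF signalling (ENSMUSG00000020176.10, chromosome 11, 11830511 to 11938686), was the 1 gene of the 41 that fell past 3-fold. Wild type was at 23.0 FPKM (22.4 to 23.6), and the mutant libraries were at 3.31 (2.99 to 3.66), 10.9 (10.05 to 11.8) and 14.0 (13 to 15.1). The lowest library was therefore a monoallelic one, at 14.4% (12.9 to 16.0) of wild type, and CAST-/129- was at 60.9% (56.3 to 65.8). With 10 added in place of 4 the log2 ratio in CAST+/129- was -1.31, short of the threshold. Grb10 has a main promoter and an inner one that is used in neurons from the paternal allele. Starts close to each other were grouped. First-exon bases particular to the outer starts (from 11938686, with the start at 11937404 among them) held 113, 11, 10 and 10 counts, and those of the next group inward (from 11927974) 1, 0, 0 and 0, which are at or under a limit of 3 counts. Over the bases of the outer starts, wild type was at 12.9 FPKM and the mutant libraries were at 2.50, 4.68 and 4.86, so that the difference from wild type was seen there too.

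Gnas encodes the alpha subunit of the stimulatory G protein and has imprinted first exons far upstream of its main start. The whole gene was at 19.5, 12.5, 24.6 and 32.7 FPKM, below wild type in CAST+/129- and above it in both other mutant libraries. With each start position counted once the log2 ratio in CAST+/129- was 0.03 in place of -0.51. Exon bases particular to the 3 upstream groups of starts held few counts. The outermost (174109821) held 15, 13, 4 and 12 counts, the next (174123360) held 20, 8, 4 and 6, and the innermost of them (174153071) held 4, 0, 0 and 1. Their levels were at most 5.01 FPKM. Inpp5f, an inositol phosphatase, was at 6.02, 5.40, 6.42 and 7.40 FPKM. Bases of its outer start held 47, 27, 4 and 12 counts, while those of the inner, imprinted start (135831060) held 0 in all libraries. For Mest, the start at 30688050 held 187, 229, 134 and 88 counts, and the other starts that could be separated held 1 count between them.

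The Dlk1-Meg3 cluster on chromosome 12 holds 3 maternally expressed noncoding RNAs. Meg3 (110779211 to 110809936) was at 16.7 FPKM (16.3 to 17.1), 28.7 (28.0 to 29.4), 22.2 (21.3 to 23.1) and 17.1 (16.4 to 17.9). Rian, a host of small nucleolar RNAs, was at 18.3, 31.0, 22.5 and 19.6, and Mirg, a host of microRNAs, was at 5.36, 11.6, 6.57 and 4.33. All 3 were highest in CAST+/129-, at 170 to 217% of wild type, and in CAST-/129- their intervals reached the wild type level, at 103%, 107% and 80.8%. None passed 3-fold. The paternally expressed genes of the cluster were low. Dlk1, a membrane protein of the Notch-ligand family, was between 0.427 and 1.76 FPKM, and the retrotransposon-derived Rtl1 had 3, 4, 3 and 0 counts. Rtl1 overlaps noncoding RNA on the opposite strand, and the strand of the reads was used to keep them apart.

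Igf2r, the receptor that carries Igf2 to lysosomes, was at 40.1 FPKM (39.3 to 40.9), 28.9 (27.9 to 29.8), 26.1 (24.8 to 27.5) and 39.5 (37.8 to 41.2). Its level was lower in the monoallelic libraries and at 98.4% (93.9 to 103) of wild type in CAST-/129-, the library with the most Igf2. Airn, the noncoding RNA that silences Igf2r in cis, had 56, 68, 53 and 46 counts in its exons. The first 10 kb after its start held 4, 15, 4 and 2 counts on its strand and 127, 59, 34 and 34 on the strand of Igf2r, where a count of 0 would allow up to 3, so that few of the exon counts lie near that start. Ube3a, a ubiquitin ligase that is imprinted in neurons, was at 27.2, 34.9, 36.8 and 32.6 FPKM, and Copg2, a coatomer subunit that overlaps the end of Mest, at 24.2, 19.7, 15.2 and 16.1. When reads of both strands were counted Copg2 lay above wild type in CAST+/129- and CAST-/129+, with log2 ratios of 0.21 and 0.26 in place of -0.25 and -0.56.

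The remaining genes were below 5 FPKM in every library, 11 in all. They are Slc22a18, Airn, Usp29, Zim1, Asb4, Magel2, Mkrn3, Dlk1, Rtl1, Plagl1 and Rasgrf1, with the highest level, 3.48 FPKM, for Usp29 in CAST-/129+. Magel2, a MAGE-family gene, Rtl1 and the Ras exchange factor gene Rasgrf1 were below 1 FPKM in every library. Rasgrf1 had 0, 6, 4 and 0 counts, and a count of 0 allows up to 3 counts. At these levels the added value of 4 keeps a gene short of the 3-fold threshold whatever its ratio. Zim1 was at 0.254 FPKM in wild type and 2.86 in CAST-/129+, and it passed the threshold there with 1 added in place of 4, at 1.62.

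A list of 33 further imprinted genes, of which 15 were under 1 FPKM in wild type, was followed in the same way. In it 0, 0 and 2 were higher, against 0.321%, 0.473% and 0.819% of all genes, and 1 was lower in each mutant library, against 0.305%, 0.330% and 0.511%. The higher ones in CAST-/129- were Dcn, the proteoglycan decorin, with 0.0623, 1.74, 1.36 and 30.3 FPKM, and Ascl2, a transcription factor of the trophoblast, with 1.52, 5.23, 5.02 and 13.7. The lower one was Cobl, an actin nucleator that lies beside Grb10, with 41.4 FPKM in wild type and 0.868, 0.811 and 2.70 in the mutant libraries. Grb10 and Cobl thus lay below wild type in all mutant libraries, but only Cobl was below by more than 3-fold in each. Median log2 ratios of the list were 0.00, 0.00 and 0.04.

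Proteins that set or keep methylation are those on which imprints depend. Of 24 such genes, 1, 1 and 1 were higher, against 0.321%, 0.473% and 0.819% of all genes, and 0, 1 and 1 lower, against 0.305%, 0.330% and 0.511%. The higher one was Dppa3, also called Stella, which protects the maternal genome from loss of methylation and was at 6.86 FPKM in wild type and 89.4, 108 and 31.1 in the mutant libraries. Tet2, an enzyme that oxidizes methylated cytosine, was the lower one, at 53.3, 22.1, 9.27 and 8.50 FPKM. The study names Tet1 among its down-regulated genes. Here Tet1 was at 109, 60.0, 45.4 and 34.9 FPKM, with a log2 ratio of -1.54 in CAST-/129-, just short of 3-fold. Median log2 ratios were 0.09, 0.05 and -0.22. Zfp57 and Trim28, named here after their values were seen, stayed within 3-fold, with 112, 88.3, 52.3 and 45.3 FPKM for Zfp57 and 153, 217, 236 and 192 for Trim28. Methylation itself was not measured.

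Genes of Igf signalling other than those above were 14 in number, of which 0, 2 and 3 were higher, against 0.321%, 0.473% and 0.819% of all genes, and 1, 0 and 1 lower, against 0.305%, 0.330% and 0.511%. The binding proteins Igfbp3 and Igfbp4, which hold IGFs outside cells, were higher in CAST-/129+ and CAST-/129-. Igfbp3 was at 7.28, 29.5, 38.0 and 78.6 FPKM and Igfbp4 at 2.42, 7.41, 16.4 and 25.6. Irs2, an adaptor of the insulin and IGF receptors, was higher in CAST-/129-, at 35.7 FPKM against 2.19 in wild type. Igf2bp2, which binds Igf2 mRNA, was at 46.3 FPKM in wild type and 6.52, 15.5 and 10.4 in the mutant libraries, and passed the threshold in CAST+/129- and CAST-/129-. Median log2 ratios of this list were 0.06, 0.22 and 0.31.

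Genes beside the clusters were counted too. Within 1 Mb of the clusters lay 151 genes on no imprinted list with a mean of at least 5 FPKM. Of these 3, 4 and 3 were at least 3-fold higher and 0, 0 and 2 lower, 1.99%, 2.65% and 1.99% for the higher ones, against 1.06%, 1.50% and 2.50% of all genes with such a mean. Of all genes with such a mean 0.798%, 0.903% and 1.47% were lower. Median log2 ratios of the 151 neighbours were -0.02, -0.08 and -0.04. Beside Peg10 the higher gene was Col1a2, a chain of collagen, at 1.14, 11.9, 13.6 and 53.4 FPKM, and beside Nnat it was Myl9, a myosin light chain of contractile cells, at 1.52, 28.3, 25.6 and 70.5. Prss8 near Inpp5f was higher in all mutant libraries and Podxl near Mest in CAST-/129+. The mean was taken over all RNA-seq libraries, so that genes high only in mutant libraries could pass it. Col1a2, Myl9 and Prss8, at 1.14, 1.52 and 3.69 FPKM in wild type, did so. Nothing is therefore read from the shares of higher neighbours. The lower genes were Tcf15 and Trib3, both near H13. No such neighbour of the H19-Igf2 or Kcnq1ot1 clusters passed 3-fold in any library. Ascl2, which lies between them (chromosome 7, 150152727 to 150155169) and passed it in CAST-/129-, is on the list of further imprinted genes and was not counted among the neighbours.

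Markers of other cell types moved in the same libraries. The 25 fibroblast markers had a summed level of 452, 536, 597 and 1579 FPKM. Of them 5, 4 and 13 were higher, against 0.321%, 0.473% and 0.819% of all genes. Those with the largest ratios in CAST-/129- were S100a4, Acta2, Col1a1, Col3a1, Lox, Col1a2, Col5a1 and Col6a1. In each mutant library 1 was lower, against 0.305%, 0.330% and 0.511% of all genes, namely Pdgfra, which is also on the primitive endoderm list. Lum, Tcf21, Fap and Dpt were at 0 counts in wild type, Tcf21 also in CAST-/129+, and none in the other libraries. Col1a1 was at 3.48, 39.0, 38.9 and 174 FPKM. The 12 trophoblast markers had summed levels of 58.4, 385, 639 and 577 FPKM. Of them 4, 6 and 4 were higher, against 0.321%, 0.473% and 0.819% of all genes. Krt18, Krt8, Hand1 and Krt7 were higher in all mutant libraries and Eomes and Prl3d1 in CAST-/129+. Krt8 and Krt18, keratins of simple epithelia in general, held 16.4, 272, 494 and 510 FPKM of these sums, and the other 10 genes 42.0, 112, 145 and 67.0, a split made after the values were seen. Tead4 was at 28.3 FPKM in wild type and 10.4 in CAST-/129-. Tpbpa and Prl3d1 were at 0 counts in wild type, Tpbpa in CAST+/129- and Prl3d1 in CAST-/129-. The 12 primitive endoderm markers had sums of 317, 113, 163 and 227 FPKM. Of them 3 were lower in each mutant library, against 0.305%, 0.330% and 0.511% of all genes. These were Gata6 and Pdgfra in all of them, Gata4 in CAST+/129- and Lama1 in both others. Without Col4a1, a collagen of basement membranes that was at 171 FPKM in CAST-/129-, the sums were 211.6, 53.6, 92.3 and 55.2 FPKM. Afp was at 0 counts in wild type and CAST+/129- and Ttr in CAST-/129-. Of the 12 ESC markers 2, 2 and 6 were lower, against 0.305%, 0.330% and 0.511% of all genes. The lower ones were Klf4 and Tbx3 in all mutant libraries and Sox2, Esrrb, Zfp42 and Nanog in CAST-/129- only. The part of other cell types in the levels of the imprinted genes was not tested.

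**Figure D3:**
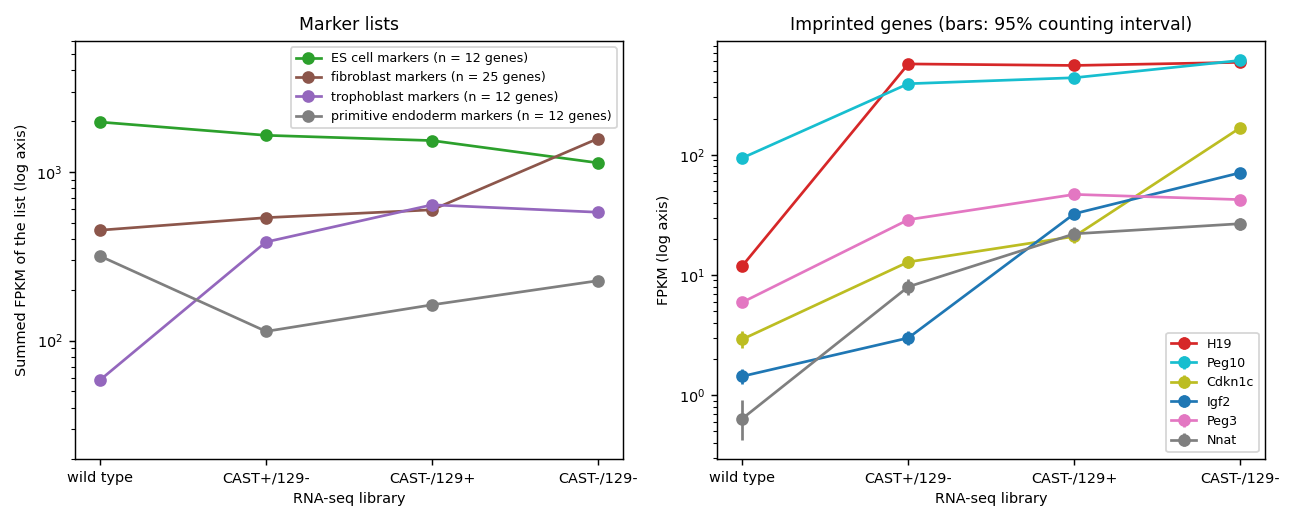
Left, summed FPKM of 4 marker lists, and right, FPKM of 6 imprinted genes with 95% counting intervals, both on a log axis over the 4 RNA-seq libraries (1 per genotype, lines only join the points). H19 is at 554 to 589 FPKM in the mutant libraries, the trophoblast sum is at 385 to 639 FPKM in them against 58.4 in wild type, of which Krt8 and Krt18 make up 272 to 510 and 16.4, and the fibroblast sum, Cdkn1c and Igf2 are highest in CAST-/129-.

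The state of the promoters in unedited cells was taken from ChIP-seq. Densities were counted in 1 kb on each side of every annotated start as fold over the genome mean, the highest start of a gene was used, and a start at 5-fold or more was called marked. H3K4me3 marked 30 of the 41 annotated genes, against 43.1% of 31484 genes, and H3K27ac marked 19 in F123, against 30.9%, and 17 in J1, against 26.9%. Both marks in F123 were on 18, against 28.2%. Of the 24 imprinted genes with at least 5 FPKM in wild type 21 carried H3K4me3, 87.5%, against 84.0% of all genes at that level. The exceptions were H19, Mirg and Rian. The F123 H3K27ac library held on average 1.19 alignments in such a window, so that 5-fold there is a handful of alignments, and levels of the lines were not compared.

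Of the 7 genes at least 3-fold higher in at least 1 mutant library 4 were marked by H3K4me3 in unedited F123 cells, against 43.1% of all genes. H3K4me3 was at 2.80-fold (1.57 to 4.62) at H19, 3.92-fold (2.43 to 6.0) at Igf2 and 4.86-fold (3.17 to 7.12) at Cdkn1c, all below 5-fold although the intervals of Igf2 and Cdkn1c reach past it. It was at 5.42-fold (3.63 to 7.78) at Phlda2, 6.54-fold (4.55 to 9.09) at Nnat, 12.3-fold (9.54 to 15.7) at Peg3 and 13.8-fold (10.9 to 17.4) at Peg10. H3K27ac in F123 was below 5-fold at all 7, from 0 alignments at Nnat to 5 at Peg3, and a count of 0 allows up to 3 alignments. In J1 it was at 5.32-fold (3.61 to 7.54) at Peg10 and below 5-fold at the other 6. Of all genes 30.9% were marked by H3K27ac in F123 and 26.9% in J1, so that most genes are unmarked too. Grb10, which was lower in the mutant libraries, carried H3K4me3 at 13.8-fold and H3K27ac at 12.6-fold at its start at 11937404, while the outermost start at 11938686 was at 2.80 and 3.37-fold.

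The highest H3K4me3 was on genes that are imprinted in some tissues only. Ube3a was at 38.7-fold H3K4me3, Nap1l4 at 32.5-fold and Cd81 at 31.9-fold, and Nap1l4 had H3K27ac in F123 at 58.1-fold (45.2 to 73.5), as did a RefSeq start of Zdbf2 (63246932). In the Dlk1-Meg3 cluster Meg3 was marked by H3K4me3 at 10.3-fold, while Rian at 0.747-fold and Mirg at 1.68-fold had no marked start although their RNA was above 4 FPKM in every library. Rian and Mirg are held to be read through from the Meg3 promoter. Usp29 had no mark at its start in GENCODE M1 (0.747-fold), but its RefSeq start, which faces that of Peg3, was at 10.8-fold. Dlk1, Rasgrf1, Mkrn3, Ndn and Plagl1 carried H3K4me3 between 5.98 and 19.1-fold with RNA levels of at most 3.85 FPKM in wild type.

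**Figure D4:**
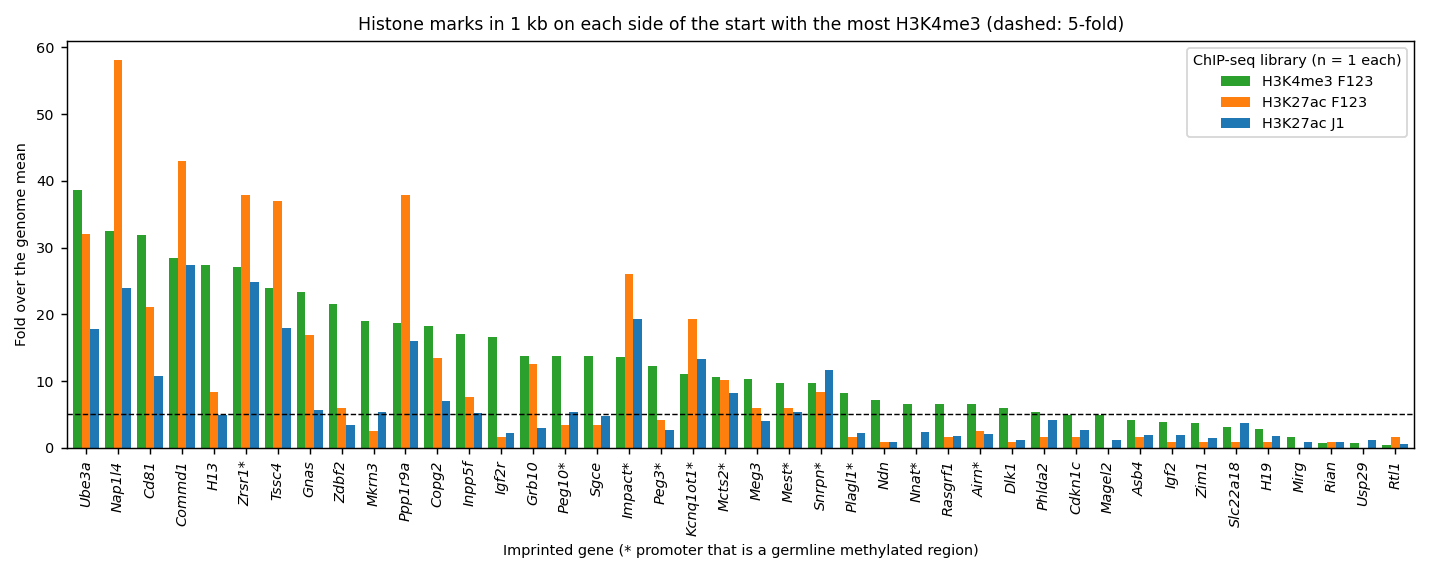
Bars give ChIP-seq density in 1 kb on each side of the start with the most H3K4me3, as fold over the genome mean of the same library, for 42 imprinted genes in order of H3K4me3 (1 library per mark and line, dashed line at 5-fold). H3K4me3 runs from 38.7-fold at Ube3a to 0.374-fold at Rtl1, and all promoters with an asterisk, which are germline methylated regions, lie above 5-fold.

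A list was made of 11 of the 42 genes for which the promoter itself is a region methylated in the germline on 1 parental copy (Airn, Impact, Kcnq1ot1, Mcts2, Mest, Nnat, Peg10, Peg3, Plagl1, Snrpn and Zrsr1). Imprinted starts of Gnas, Grb10 and Inpp5f were not put on it, so that the list may not be complete. All 11 carried H3K4me3, against 43.1% of all genes, between 6.54-fold at Airn and Nnat and 27.1-fold at Zrsr1. Several of them had at least 5 FPKM in wild type, and most of all genes at that level carried H3K4me3, as given above. H3K27ac in F123 was on 6 of them, against 30.9% of all genes, namely Impact, Kcnq1ot1, Mcts2, Mest, Snrpn and Zrsr1. In J1 it was on these 6 and on Peg10, 7 in all, against 26.9% of all genes. The window of Zrsr1 overlaps an inner start of Commd1, and that of Peg10 overlaps Sgce, so that their marks cannot be told apart. H3K27ac in F123 was at 26.1-fold at Impact and 19.4-fold at Kcnq1ot1. Of the 10 annotated genes of this kind 2, 3 and 3 were at least 3-fold higher in the mutant libraries, against 0.321%, 0.473% and 0.819% of all genes, and 0 were lower, against 0.305%, 0.330% and 0.511%, with median log2 ratios of 0.72, 0.80 and 0.70.

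**Figure D5:**
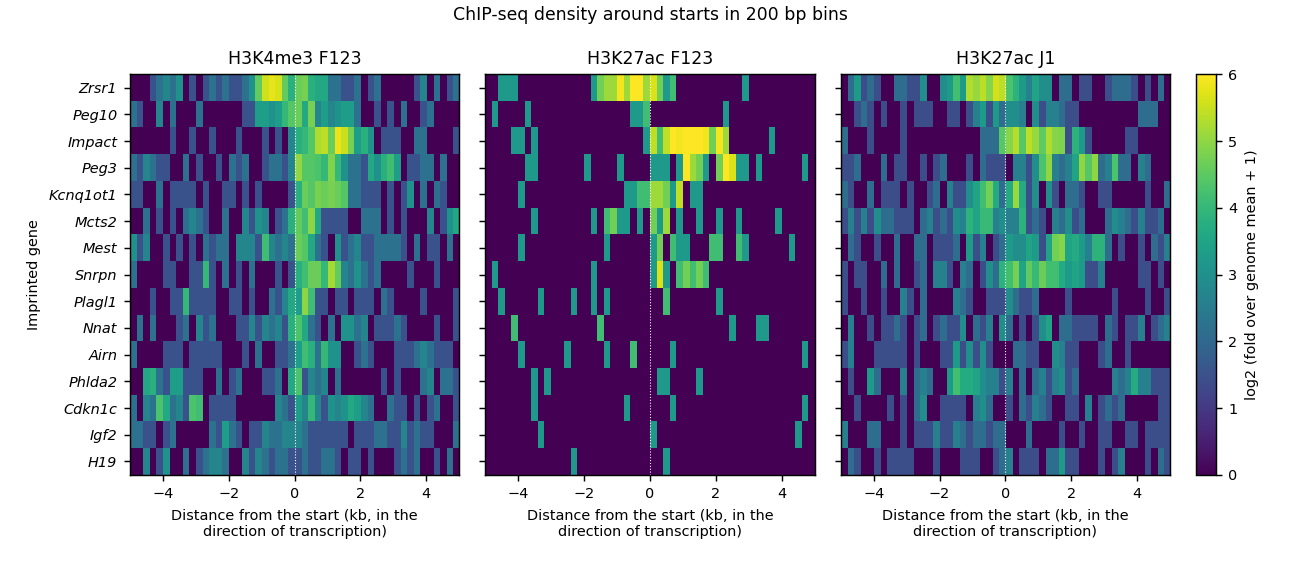
Colour gives ChIP-seq density as log2 of fold over the genome mean plus 1 in 200 bp bins up to 5 kb on each side of the start with the most H3K4me3, for the 11 germline methylated promoters and for Phlda2, Cdkn1c, Igf2 and H19, in 3 ChIP-seq libraries. H3K4me3 is concentrated at the starts of the 11 promoters and weak at H19 (2.80-fold over the whole window) and Igf2 (3.92-fold), and H3K27ac in F123 is dense downstream of the Impact start.

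Promoter sequences were read from RefSeq on GRCm38.p6, where each spans 300 bases around a start. They are shown because the methylated copy of these promoters is where Zfp57 binds, through the motif TGCCGC. Of the 11 promoters 9 had an entry used here, and 5 of the 9 held TGCCGC on either strand, against 11.6% of 32851 promoters. Mest held 2 copies, as 1.53% of promoters hold at least 2, and Mcts2, Snrpn, Plagl1 and Nnat held 1 each. The motif was not particular to this list. Among imprinted genes off it, Commd1, Copg2, Grb10, Igf2, Meg3, Zim1 and Zdbf2 held it at a RefSeq start, and the others with an entry did not. Zdbf2 held 3 copies at 1 start, as 0.234% of promoters hold at least 3. Shown are Zrsr1, Peg3, Kcnq1ot1 and Mcts2, which had the highest H3K4me3 among those that could be printed, and Mest was added after its copies were seen. Capitals mark TGCCGC or its reverse complement GCGGCA, sequences run 5′ to 3′ on the strand of the gene, and a match is not evidence of binding. The RefSeq start of Zrsr1 (22872005 of mm9) lies before its GENCODE M1 start (22873215) and carried H3K4me3 at 21.3-fold. The windows are at chr11:22971755-22972054 (plus strand) for Zrsr1, chr7:6730370-6730669 (minus) for Peg3, chr7:143296498-143296797 (minus) for Kcnq1ot1, chr2:152686898-152687197 (plus) for Mcts2 and chr6:30737803-30738102 (plus) for Mest.
Zrsr1: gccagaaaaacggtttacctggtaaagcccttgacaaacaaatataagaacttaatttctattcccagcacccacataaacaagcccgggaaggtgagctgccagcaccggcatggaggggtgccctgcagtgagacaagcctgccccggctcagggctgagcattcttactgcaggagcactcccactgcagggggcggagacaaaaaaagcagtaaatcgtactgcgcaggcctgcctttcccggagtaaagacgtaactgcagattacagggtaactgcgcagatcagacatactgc
Peg3: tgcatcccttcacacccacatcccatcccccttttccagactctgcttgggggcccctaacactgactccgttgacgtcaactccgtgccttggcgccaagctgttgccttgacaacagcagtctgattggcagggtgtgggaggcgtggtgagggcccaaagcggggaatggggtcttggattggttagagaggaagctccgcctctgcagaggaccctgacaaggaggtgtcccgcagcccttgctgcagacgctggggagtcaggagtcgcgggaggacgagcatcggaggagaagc
Kcnq1ot1: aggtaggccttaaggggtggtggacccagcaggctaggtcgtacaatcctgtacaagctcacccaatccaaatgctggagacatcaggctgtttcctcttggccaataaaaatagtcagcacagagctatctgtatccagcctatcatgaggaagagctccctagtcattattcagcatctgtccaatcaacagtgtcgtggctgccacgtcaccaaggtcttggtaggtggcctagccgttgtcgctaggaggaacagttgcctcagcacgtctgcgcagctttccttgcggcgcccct
Mcts2: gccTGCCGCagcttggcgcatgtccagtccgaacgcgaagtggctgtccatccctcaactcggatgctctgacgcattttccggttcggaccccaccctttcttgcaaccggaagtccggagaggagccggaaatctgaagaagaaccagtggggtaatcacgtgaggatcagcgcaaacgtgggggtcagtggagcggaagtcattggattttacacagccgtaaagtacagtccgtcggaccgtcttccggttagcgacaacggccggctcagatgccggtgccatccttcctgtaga
Mest: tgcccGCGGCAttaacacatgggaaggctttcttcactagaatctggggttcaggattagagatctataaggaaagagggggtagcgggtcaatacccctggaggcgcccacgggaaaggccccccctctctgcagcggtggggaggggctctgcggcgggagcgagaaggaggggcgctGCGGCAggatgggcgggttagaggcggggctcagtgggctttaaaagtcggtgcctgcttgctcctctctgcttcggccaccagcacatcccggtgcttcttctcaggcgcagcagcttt

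The printed Mest promoter belongs to the exon that held 187 wild type counts, and it carried H3K4me3 at 9.71-fold and H3K27ac at 5.89-fold in F123. Zrsr1, Peg3 and Kcnq1ot1 held no copy of the motif in these 300 bases, which says nothing of the rest of their methylated regions. Among the genes of this kind that rose, Peg3 held none, Nnat held 1 and Peg10 is not in the table.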

How the data were processed

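Deposited files list aligned positions on mm9 with a count of the reads behind each distinct alignment, as the authors made them with Novoalign (RNA-seq) and Bowtie (ChIP-seq) per the labels' processing notes and the study's methods. The meaning of this count column was read from its values. RNA-seq was strand-specific and poly(A)-selected. Distinct alignments were counted on the sense strand by midpoint in exonic bases of 1 GENCODE M1 gene, with at least 200 such bases, and scaled to FPKM by the alignments on these genes. Genes were called at 3-fold after adding 4. ChIP-seq density was the number of 5′ ends in 1 kb on each side of a start, divided by the genome mean, with no input. With 1 library per condition no test was made. The intervals follow the counts behind each value. The rule was also run on simulated counts, with large changes placed in well-expressed genes and counting error only. That run says nothing of genes with low levels or of the spread between clones. The imprinted genes and all lists were chosen with earlier results of these data known. All annotated genes of the set are named, with FPKM in all libraries for those that reached 5 FPKM in 1 of them. From lists, genes past 3-fold in any comparison are named, at most 8 per list by their ratio in CAST-/129-, beside the 0-count markers and those singled out after their values were seen (Col4a1, Pdgfra as a fibroblast marker, Tead4, Tet1, Trim28 and Zfp57). Promoters printed are the 4 with the highest H3K4me3 that lie outside chromosome 18 and have an entry in the table, and Mest. Alternatives changed the unit, library size, depth, pseudo-value, threshold, filter, strand, gene bases, promoter window, start and genome mean. Allele-specific reads were not analysed here. Tools were numpy 2.4.6, scipy 1.17.1, pandas 2.3.3 and matplotlib 3.10.9 under Python 3.11.15.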

Additional observations from a re-analysis of the deposited data

Results flagged for a closer look

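In 3 imprinted genes the libraries with the SE deleted on 1 allele lay on opposite sides of wild type by more than counting error, and whether these differences exceed the spread between clones was not tested. The share of all genes that do so was not counted, so that nothing is read from the number of 3. Phlda2 was at 143% of wild type in CAST+/129- and at 66.4% in CAST-/129+, so that its log2 ratio was -0.87 in CAST-/129+ relative to CAST+/129-. Gnas was at 64.3% and 126%, a log2 difference of 0.79, and with each start position counted once its log2 ratio in CAST+/129- was 0.03 in place of -0.51. Asb4, an ankyrin-repeat protein gene, was at 43.3% (28 counts) and 223% (70 counts), a log2 difference of 0.60 at levels of at most 2.94 FPKM.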

How the results depend on the processing

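Of 93 recomputed counts and medians 88 kept their value within the limits set (1.5 times for a count). In CAST+/129- the number of imprinted genes above wild type was 5 with a pseudo-value of 1, where Cdkn1c and Nnat were added, and 7 at 2-fold, and the number below was 0 with a pseudo-value of 10. At 10-fold as the limit for a mark, 12 of the imprinted genes carried H3K27ac in F123 and 9 in J1. The share of all genes at that limit is not given here, so that nothing is read from these counts. Of 1218 recomputed ratios of single genes 277 left the counting interval of the reported one, 66 with a pseudo-value of 1, 61 with 10, 63 with each start position counted once and 48 with all reads counted. Ratios without such an interval, those of Rasgrf1, were counted as outside it, and make up the 3 under the threshold of 2-fold. That threshold and the filter on mean FPKM change no ratio. Calls held in 164 of 170 ratios of the genes past 3-fold. A pseudo-value of 1, the threshold of 2-fold and the filter on mean FPKM could not lose a call, so that this count overstates how well calls held. Those lost were Grb10, Peg3 and Cdkn1c with a pseudo-value of 10 (-1.31 and 1.29 in CAST+/129- and 1.26 in CAST-/129+) and Peg3, Peg10 and Phlda2 with each start position counted once (1.49 and 0.98 in CAST+/129- and 1.50 in CAST-/129-). Counting start positions once limits abundant genes by construction. No ratio past 3-fold changed sign, but 31 of the 1218 did, among them Nap1l4 in both monoallelic libraries with all reads counted (-0.14 and -0.14), Mcts2 in CAST-/129- (0.11) and Zrsr1 in CAST-/129+ and CAST-/129- (0.06 and 0.09) under the same setting, Cd81 and Gnas in CAST+/129- with each start position counted once (0.02 and 0.03) and Copg2 in both monoallelic libraries with both strands counted (0.21 and 0.26). The cause was not tested. No paired analysis was possible because there is 1 library per genotype, and no replicate could be left out. Depth limits the genes below 5 FPKM and the F123 H3K27ac values.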
